A study of Mus musculus with 12 samples.

Results

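The loci described here are those of 45 genes of macrophages and of the TREM2 signalling pathway, out of 21883 protein-coding genes. Each locus is the gene's RefSeq extent in mm10 with 10 kb added on each side, and every peak of acetylated histone H3 lysine 36 (H3K36ac) touching a locus was collected. The peaks came from liver tumours of 2 genotypes, with 3 libraries each: LysM-Cre mice, with only the Cre recombinase of myeloid cells, and Trem2-MKO mice, whose Trem2 is knocked out in those cells. The study design counts 3 mice of each genotype, but the labels do not say that each library came from its own mouse. All tumours had received anti-PD-1, an antibody against an inhibitory receptor of T cells, so treatment was shared by both groups and no untreated tumour was compared. The study is of hepatocellular carcinoma. The sources used here give neither the age of the mice nor the tumour model or the Trem2 allele. The comparison asks whether H3K36ac at the genes of macrophages differs when their TREM2 is lost.

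TREM2 is a surface receptor of macrophages that binds lipids and lipoproteins. It has no signalling tail of its own and works through the adaptor DAP12, encoded by Tyrobp, which recruits the kinase SYK, and from there phospholipase C gamma and PI3-kinases are engaged. In tissues rich in lipid, TREM2 marks macrophages that also express galectin-3, GPNMB, osteopontin and lipid-handling proteins. The Cre driver is placed in Lyz2, the lysozyme M gene, which is active in macrophages, monocytes and neutrophils. H3K36ac is found mainly at the starts of active genes.

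In order of replicate, the LysM-Cre lists held 18262, 29970 and 19981 peaks and the Trem2-MKO lists 29906, 6840 and 4638. Trem2-MKO replicates 2 and 3 stand apart, with shorter lists but more fragments at a median summit (20 and 23 against 11 in each of the other 4). Their median background, in scaled pileup rather than whole fragments, was also higher (5.92 in each against 2.39 to 2.70). Their median fold was lower (2.63 and 2.68 against 3.01 to 3.25). Only 9.47% to 17.1% of the peaks of a list had a −log10 q of 2 or more, which is a false discovery rate of 1% or less. Whole tumour was profiled, so a smaller number of macrophages and less H3K36ac per macrophage cannot be told apart. Hepatocyte loci did not stand out in these liver tumours: 10 of 29, Alb and Apoa1 among them, had no peak in any library, where 28.2% of all loci had none. Others did, with Hnf4a and Cps1 marked in 4 libraries. By gene and library the 29 had a peak 39 times, where loci of like gene length gave 35.2. A locus without a peak is therefore one where none was called, not one shown to lack the mark.

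A peak was found at 36 of the 45 loci (80%) in at least 1 library, where 71.8% of all protein-coding loci had one. There were 111 distinct peaks, or 113 counted by locus, since the loci of C1qa, C1qb and C1qc overlap and share 1 peak. Among LysM-Cre libraries, replicates 1, 2 and 3 had a peak at 11, 21 and 11 of these loci, where 28.6%, 39.1% and 30.4% of all loci had one. The Trem2-MKO libraries had a peak at 24, 6 and 7, where 40.6%, 14.1% and 8.16% of all loci had one. The means were 14.3 ± 5.77 and 12.3 ± 10.1 loci (SD, n = 3 each), so the genotypes overlapped and the spread within each exceeded the difference. These counts followed the length of the list only roughly, with the most loci in the 2 longest lists. The list of 29906 peaks gave 24 loci and that of 29970 gave 21, and 4638 peaks gave 7 where 6840 gave 6.

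**Figure D1:**
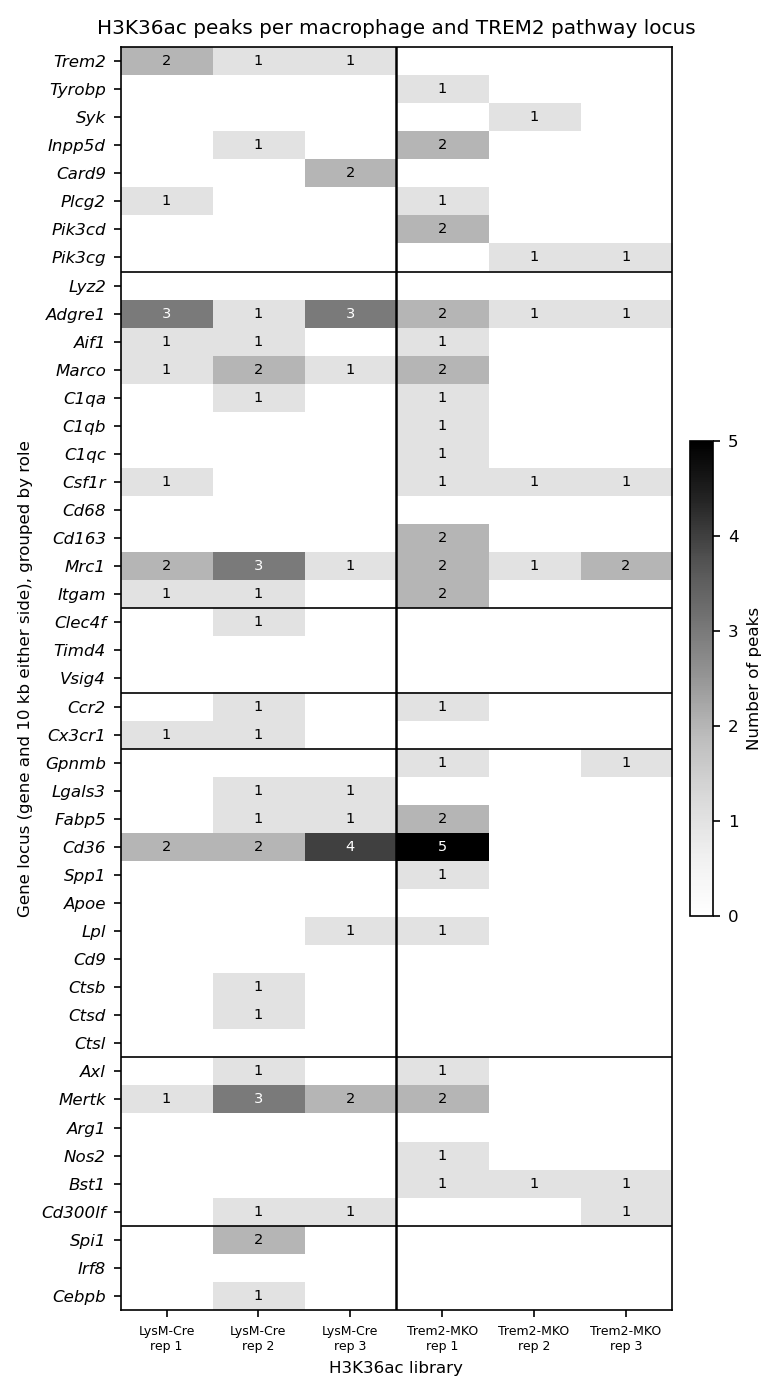
Number of H3K36ac peaks at each of the 45 loci (rows, grouped by role with lines between groups) in the 3 LysM-Cre and 3 Trem2-MKO libraries (columns); an empty cell is 0. Adgre1 and Mrc1 have a peak in all 6 libraries, Trem2 only in the LysM-Cre columns and Bst1 only in the Trem2-MKO columns.

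The loci were also read against genes of like length. For each gene, all other protein-coding genes with a length within 20% (492 to 2511 genes) gave the share with a peak in the same library. In the LysM-Cre libraries the share of the 45 loci with a peak was 24.4%, 46.7% and 24.4%, beside 27.1%, 37.8% and 29.2% of like-length loci. In the Trem2-MKO libraries it was 53.3%, 13.3% and 15.6%, beside 39.7%, 12.3% and 6.12%. The ratio of the observed to the like-length number was 0.903, 1.23 and 0.837 in LysM-Cre and 1.34, 1.09 and 2.54 in Trem2-MKO. The ranges of the genotypes overlap, and the highest value rests on 7 loci in the shortest list (Pik3cg, Adgre1, Csf1r, Mrc1, Gpnmb, Bst1 and Cd300lf). Pooled over the 6 libraries the ratio was 1.17, beside 1.04 for 48 further TREM2 and DAP12 pathway genes, 1.15 for 30 T and NK cell genes and 1.11 for 29 hepatocyte genes. Over the Trem2-MKO libraries alone it was 1.41, beside 0.972, 1.44 and 1.35 for these lists, so 2 of the 3 lists had a ratio of about this size too. Over the LysM-Cre libraries it was 1.02, beside 1.08, 0.965 and 0.957. With the flanks left out, the pooled ratio of the 45 loci fell below 1, to 0.932. These ratios were not tested.

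**Figure D2:**
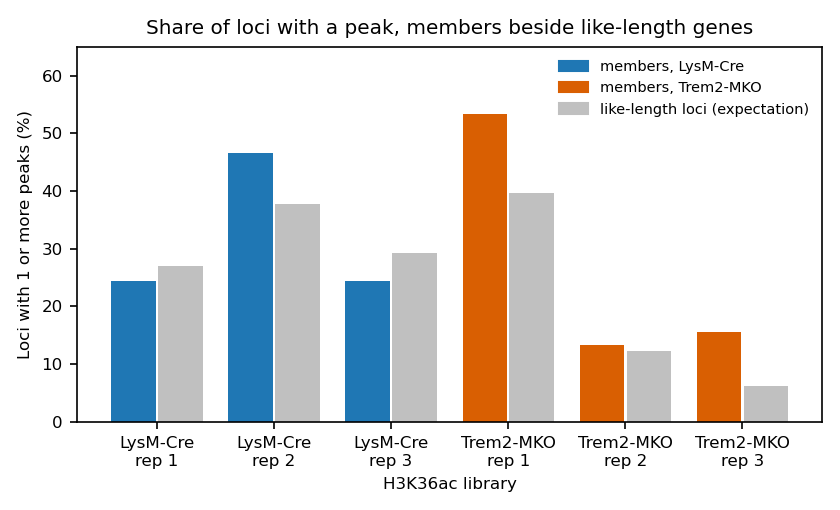
Share of loci with 1 or more peaks in each library (%), for the 45 loci (coloured by genotype) and for genes of like length in the same library (grey). The coloured bar is higher than the grey one in LysM-Cre replicate 2 and in all 3 Trem2-MKO libraries, and lower in LysM-Cre replicates 1 and 3.

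Peaks at gene ends were the class in which these loci stood furthest above like-length genes. A peak was counted at a gene end when it came within 1 kb of either end of the gene. Gene ends held 20 peaks at 15 loci, where like-length genes gave 8.88, a ratio of 2.25. The counts were 2, 7 and 2 in the LysM-Cre libraries (1.54, 2.27 and 1.98 from like-length genes). They were 5, 2 and 2 in the Trem2-MKO libraries (2.05, 0.734 and 0.313). Each library was above its like-length value, but LysM-Cre replicate 3 only barely (2 against 1.98), and 1 of its peaks, at Card9, overlaps the gene Dnlz. The 2 peaks of Trem2-MKO replicate 2 and the 2 of replicate 3 lay at the same 2 genes, Adgre1 and Bst1. LysM-Cre replicate 2 alone held 7 peaks. Gene ends held 17.7% of the peaks in LysM-Cre and 17.6% of those in Trem2-MKO, beside 9.20% at like-length genes. Gene bodies held 54 peaks (56.0 from like-length genes) and the 10 kb flanks held 39 (31.7). In the comparison lists the ratio at gene ends was 1.12 for the further pathway genes, 1.68 for T and NK cell genes and 1.43 for hepatocyte genes. The gene-end excess was not tested, and 8 of its 20 peaks came from Adgre1, Bst1 and Lgals3.

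**Figure D3:**
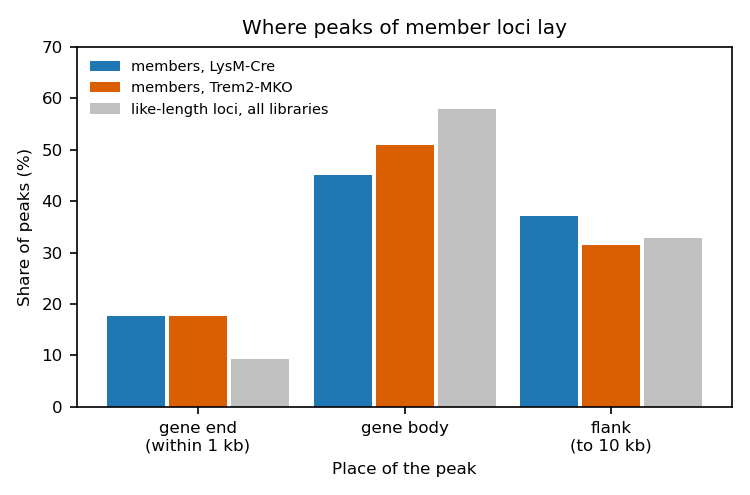
Share of peaks (%) at gene ends, in gene bodies and in flanks, for the 45 loci (blue LysM-Cre, orange Trem2-MKO) and for like-length genes over all libraries. The gene-end share is near 17.7% in both genotypes and 9.20% at like-length genes.

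Of the 34 genes with a promoter sequence in the RefSeq table (GRCm38.p6, the assembly mm10 names), only Lgals3, Marco, Gpnmb and Itgam had a peak over the window from 250 bases before to 50 after a start site. In a library 0 to 2 of the 34 genes, which have 42 windows, were overlapped. Peaks overlapped 0.170% to 1.27% of all 32851 promoter windows, a share of windows and not of genes. The windows of these 4 genes are given here because they carry the promoter peaks, and that of Trem2, the targeted gene, because it had none. Capitals mark matches on either strand to a PU box (GAGGAA, the core bound by the myeloid factor PU.1), an AP-1 motif (TGANTCA) or a GC box (GGGCGG), and no E-box (CACGTG) was found in them. Lgals3 lies on the plus strand at chr14:47373610-47373909, Marco on the minus strand at chr1:120504975-120505274, Gpnmb on the plus strand at chr6:49036268-49036567, Itgam on the plus strand at chr7:128062390-128062689 and Trem2 on the plus strand at chr17:48346151-48346450. Each sequence reads 5′ to 3′ on the strand of its gene:
Lgals3: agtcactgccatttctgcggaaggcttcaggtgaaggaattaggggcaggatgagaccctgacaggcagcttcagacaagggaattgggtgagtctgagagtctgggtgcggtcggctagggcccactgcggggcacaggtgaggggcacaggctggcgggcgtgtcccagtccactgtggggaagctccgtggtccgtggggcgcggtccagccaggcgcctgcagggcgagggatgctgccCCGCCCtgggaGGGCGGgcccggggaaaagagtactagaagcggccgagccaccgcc
Marco: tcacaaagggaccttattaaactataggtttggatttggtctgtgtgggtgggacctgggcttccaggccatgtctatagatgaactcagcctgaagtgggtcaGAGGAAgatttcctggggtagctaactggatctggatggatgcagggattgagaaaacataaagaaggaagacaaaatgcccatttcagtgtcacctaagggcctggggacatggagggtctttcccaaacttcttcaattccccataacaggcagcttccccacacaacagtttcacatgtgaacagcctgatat
Gpnmb: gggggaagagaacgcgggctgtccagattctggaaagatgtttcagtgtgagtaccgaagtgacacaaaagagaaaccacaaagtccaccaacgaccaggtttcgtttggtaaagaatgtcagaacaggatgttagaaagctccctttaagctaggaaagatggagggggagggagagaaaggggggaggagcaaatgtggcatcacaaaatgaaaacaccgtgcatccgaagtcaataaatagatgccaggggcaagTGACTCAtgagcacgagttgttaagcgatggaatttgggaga
Itgam: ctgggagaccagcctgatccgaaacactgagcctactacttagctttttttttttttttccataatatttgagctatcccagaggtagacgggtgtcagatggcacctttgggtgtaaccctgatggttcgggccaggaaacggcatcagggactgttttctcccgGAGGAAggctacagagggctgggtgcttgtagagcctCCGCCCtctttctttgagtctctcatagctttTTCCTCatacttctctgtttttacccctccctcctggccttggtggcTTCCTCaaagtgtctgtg
Trem2: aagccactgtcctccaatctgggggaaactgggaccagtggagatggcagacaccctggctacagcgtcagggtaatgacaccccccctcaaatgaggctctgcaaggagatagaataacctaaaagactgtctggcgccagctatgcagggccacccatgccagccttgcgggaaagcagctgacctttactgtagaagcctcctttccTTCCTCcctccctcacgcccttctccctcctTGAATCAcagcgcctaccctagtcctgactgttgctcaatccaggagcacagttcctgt

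The Lgals3 window is GC-rich at 67.0% and holds 2 GC boxes close to its start site. The Trem2 window holds 1 PU box and 1 AP-1 match, Gpnmb 1 AP-1 match, Marco 1 PU box and Itgam 3 PU boxes with 1 GC box. Among all promoter windows, 28.3% hold a PU box, 7.81% an AP-1 match, 35.7% a GC box and 7.15% an E-box. The 34 genes have 42 windows, of which 18 (42.9%) hold a PU box, 3 (7.14%) an AP-1 match, 15 (35.7%) a GC box and 3 (7.14%) an E-box. A match describes the letters only.

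The strongest promoter peak of the set was at Lgals3, which encodes galectin-3, a lectin of lipid-laden macrophages. In LysM-Cre replicate 2 the peak (chr14:47373605-47374026) covered all 300 bases of the promoter window, with its summit 72 bases before the start site. It was 4.86-fold over background, with 17 fragments at the summit over a background of 2.70, and ranked in the top 0.781% of its list. In LysM-Cre replicate 3 (chr14:47373658-47374168) the summit lay 35 bases after the start site, at 5.61-fold with 18 fragments over 2.39, in the top 0.275%. LysM-Cre replicate 1 and all 3 Trem2-MKO libraries had no peak at the locus. The locus thus had 0, 1 and 1 peaks in LysM-Cre and 0, 0 and 0 in Trem2-MKO. The groups overlap at 0 peaks (exact two-sided permutation p = 0.4, adjusted p = 1.0 over all loci).

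The other promoter peaks were weaker and each came from 1 library. At Marco, a scavenger receptor of resident macrophages, Trem2-MKO replicate 1 had a peak over the whole window (3.61-fold, top 18.1% of its list). At Gpnmb, a glycoprotein of lysosome-rich macrophages, the same library had a peak that overlapped the window by 39 bases (3.09-fold, top 50.4%), and Trem2-MKO replicate 3 had one 1.77 kb upstream of the gene (2.91-fold). No LysM-Cre library had a peak at the Gpnmb locus. The Itgam peak, in LysM-Cre replicate 1, overlapped the window by 156 bases with its summit 405 bases upstream. It was among the weakest of its list, at 2.34-fold, 7 fragments and rank 99.0%. Itgam encodes CD11b, the integrin chain of myeloid cells.

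Trem2 itself (chromosome 17, 48346401 to 48352276) had peaks only in its flanks and only in LysM-Cre libraries. LysM-Cre replicate 1 had 2, with summits 8.00 kb upstream of the gene (4.10-fold, 13 fragments over 2.42) and 1.49 kb past its far end (2.93-fold, 9 fragments). LysM-Cre replicate 2 had 1 peak, 1.79 kb past the far end (3.78-fold, 13 fragments over 2.70), which overlaps that of replicate 1 in 1 region (chr17:48353411-48354149). The peak of LysM-Cre replicate 3 lay 8.01 kb past the far end (3.84-fold, 12 fragments over 2.39), inside the neighbouring gene Treml1, a receptor of the same family. The counts were 2, 1 and 1 in LysM-Cre and 0, 0 and 0 in Trem2-MKO, and the groups do not overlap.

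The test does not call this a difference. The difference in means was −1.33 peaks (Trem2-MKO minus LysM-Cre; exact two-sided permutation p = 0.1, the smallest that 20 assignments of the libraries allow; adjusted p = 1.0). Trem2 was 1 of the 45 genes (2.22%) with a peak in every LysM-Cre library and in no Trem2-MKO library, a pattern found at 1.39% of all loci and at 0.710% of the 1549 like-length loci. The 45 genes were chosen with earlier results of these data known, so these shares are a description only. Peak numbers that do not overlap, with LysM-Cre higher, were found at 1 of the 45 loci and at 1.91% of all loci. With the 4638 strongest peaks of each list, Trem2 still had 1, 1 and 1 peaks in LysM-Cre and none in Trem2-MKO, where 0.165% of all loci had the pattern. With a flank of 5 kb the pattern ended, since replicate 3 then had none. Neither the body of Trem2 nor its gene ends held a peak in any library, and these peaks are no check of the deletion. Treml1 had the same 3 to 0 pattern, but its 3 peaks were all shared with the Trem2 locus.

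**Figure D4:**
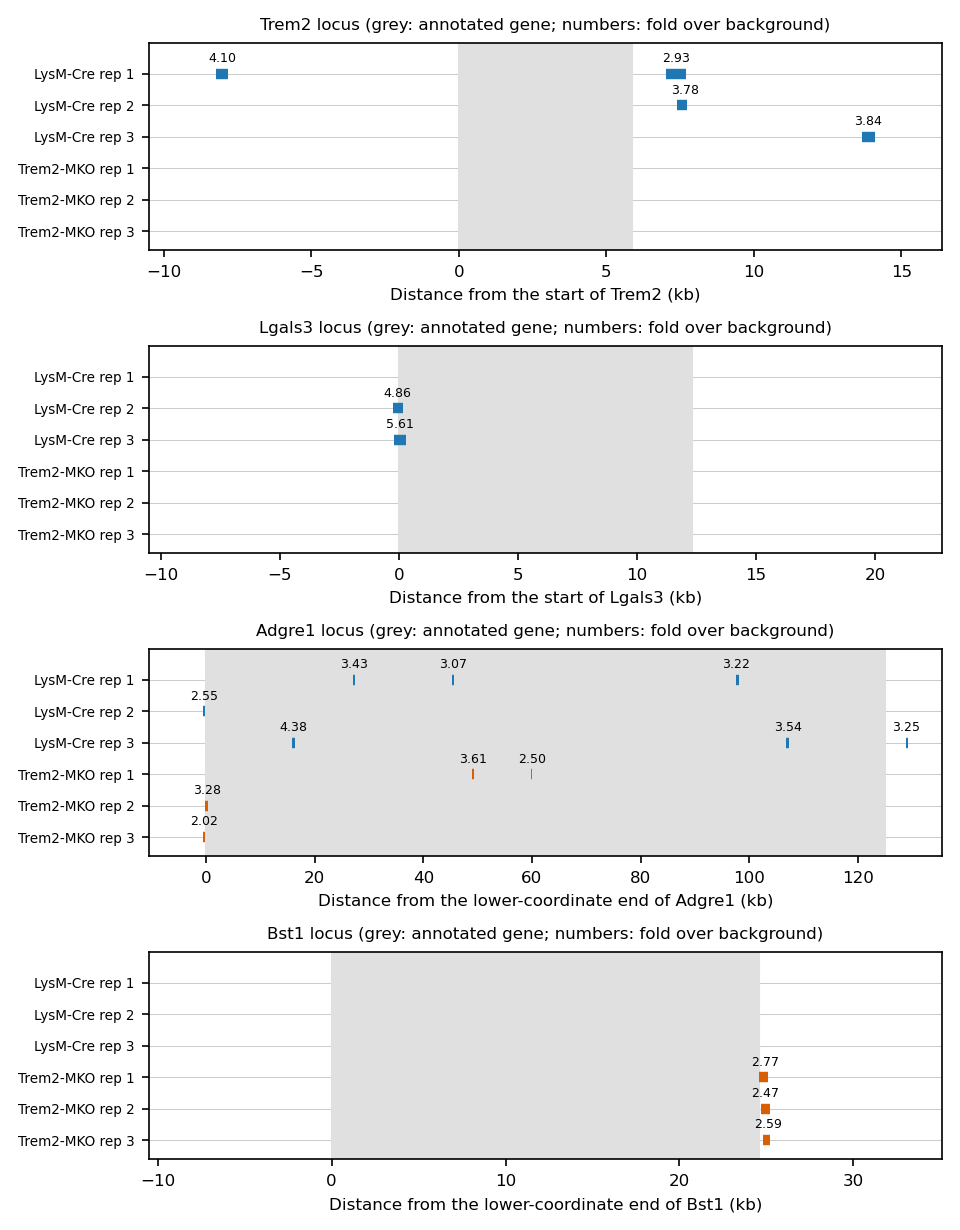
Peaks at the Trem2, Lgals3, Adgre1 and Bst1 loci by library (rows; blue LysM-Cre, orange Trem2-MKO) against distance from the gene start or, where strand was not at hand, the lower-coordinate end (kb). Grey marks the gene and the number over each peak is its fold over background. Peaks of Trem2 fall outside the gene, those of Lgals3 at its start, those of Bst1 just past 1 end, and those of Adgre1 at its lower end and along the body.

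None of the 7 other pathway genes among the 45 had a peak in more than 2 libraries. Counted by gene and library, the 8 pathway genes had a peak 13 times, where like-length loci gave 15.2. Tyrobp, the DAP12 adaptor, had a single peak, in its body in Trem2-MKO replicate 1 (3.34-fold, 15 fragments over 3.79). Syk, the kinase recruited by DAP12, had 1 in its body in Trem2-MKO replicate 2 (2.98-fold). Downstream of SYK, Plcg2 had 1 peak in LysM-Cre replicate 1 and 1 in Trem2-MKO replicate 1. Pik3cd and Pik3cg encode catalytic PI3-kinase subunits of leukocytes. Pik3cd had 2 peaks in Trem2-MKO replicate 1, both upstream of the gene, at 3.19 and 9.68 kb. Pik3cg had 1 each in Trem2-MKO replicates 2 and 3, one in the gene and one 1.29 kb upstream, and none in LysM-Cre.

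Inpp5d encodes SHIP1, a phosphatase that opposes PI3-kinase. It had 1 peak past its far end in LysM-Cre replicate 2 (0.702 kb beyond the gene, 3.51-fold) and 2 in its body in Trem2-MKO replicate 1, the stronger at 4.16-fold. Card9, an adaptor downstream of SYK, had 2 peaks in LysM-Cre replicate 3 and none elsewhere. Both overlap the neighbouring gene Dnlz, and the one at the far end of Card9 stood on a local background of 9.21 fragments, beside a median of 2.39 in its list. Of the 48 further TREM2 and DAP12 pathway genes, 45 had a peak in some library, where 71.8% of all loci, not matched for length, had one. By gene and library they had a peak 102 times, close to the 98.2 of like-length loci. Treml1 and Vav1, a signalling protein of blood cells, had the same 3 to 0 pattern (1.39% of all loci), and none showed the reverse (0.101% of all loci). Vav1 had 1, 1 and 3 peaks in LysM-Cre (exact two-sided permutation p = 0.1, adjusted p = 1.0).

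The 12 genes of macrophage identity had a peak 31 times by gene and library, where like-length loci gave 17.6, with 15 in LysM-Cre (10.8) and 16 in Trem2-MKO (6.76). Of these 16, 10 came from Trem2-MKO replicate 1, and 3 of those are the 1 peak shared by the C1q genes. Of these genes, Adgre1 and Mrc1 had a peak in all 6 libraries. This was 2 of the 45 loci (4.44%), and 1.59% of all loci had a peak in every library. Both genes exceed 100 kb, and of the loci of like length 1.66% for Adgre1 and 0.927% for Mrc1 were as widely marked. Adgre1 encodes F4/80, a surface protein of mouse macrophages, and had 3, 1 and 3 peaks in LysM-Cre and 2, 1 and 1 in Trem2-MKO. At its lower-coordinate end, peaks of LysM-Cre replicate 2 (2.55-fold), Trem2-MKO replicate 2 (3.28-fold) and Trem2-MKO replicate 3 (2.02-fold) fell in 1 merged region (chr17:57358042-57358939). It was 1 of 2 merged regions at these loci held by 3 libraries. The peaks of LysM-Cre replicate 2 and Trem2-MKO replicate 2 did not overlap, and were joined only through that of Trem2-MKO replicate 3. No base was thus held by all 3 libraries. Local backgrounds there, in scaled pileup, were 4.48, 5.92 and 9, beside list medians of 2.70, 5.92 and 5.92. The other 8 peaks of Adgre1 lay at separate places, the strongest in its body in LysM-Cre replicate 3 at 4.38-fold.

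Mrc1 encodes the mannose receptor CD206. It had 2, 3 and 1 peaks in LysM-Cre and 2, 1 and 2 in Trem2-MKO, and no 2 of its 11 peaks overlapped. They ran from 6.58 kb upstream of the gene to 5.04 kb past its far end, where LysM-Cre replicate 1 had the strongest, at 4.68-fold. The nearest to the start lay 1.81 kb inside the gene, in Trem2-MKO replicate 1. The locus was thus marked in every library without any position being shared.

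Csf1r and Marco had a peak in 4 libraries, as did Cd36 and Mertk below. In all, 6 loci (13.3%) were marked in 4 or more libraries, close to the 12.5% of all loci. Csf1r, the receptor for the growth factor of macrophages, had 1, 0 and 0 peaks in LysM-Cre and 1, 1 and 1 in Trem2-MKO, at 4 separate positions. Those of LysM-Cre replicate 1 and of Trem2-MKO replicates 2 and 3 lay 9.80, 8.77 and 5.70 kb below the lower-coordinate end, and that of Trem2-MKO replicate 1 inside the gene. Marco had 1, 2 and 1 peaks in LysM-Cre and 2, 0 and 0 in Trem2-MKO. Its 6 peaks included the promoter peak given above and 2 upstream, at 1.94 kb in LysM-Cre replicate 1 and 6.85 kb in LysM-Cre replicate 3.

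Aif1, which encodes the actin-binding protein IBA1, had 1, 1 and 0 peaks in LysM-Cre and 1, 0 and 0 in Trem2-MKO. The peak of LysM-Cre replicate 2 lay 0.412 kb inside the start (4.05-fold, top 5.23% of its list), that of LysM-Cre replicate 1 lay 3.25 kb upstream, and that of Trem2-MKO replicate 1 in the body. The C1q genes encode the 3 chains of the first complement component, made largely by macrophages. Their shared peak, in Trem2-MKO replicate 1, lay 1.10 kb inside C1qc (4.11-fold, top 7.62%), and 1 more peak lay 7.12 kb above the upper end of C1qa in LysM-Cre replicate 2. Cd163, the haemoglobin scavenger receptor, had 2 peaks in its body in Trem2-MKO replicate 1, the stronger at 4.44-fold and in the top 2.35%. Itgam had 1, 1 and 0 peaks in LysM-Cre and 2, 0 and 0 in Trem2-MKO. Lyz2 and Cd68, a lysosomal membrane protein, had none.

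By gene and library, the 3 Kupffer cell genes were marked once, where like-length loci gave 4.78, and the 2 monocyte receptors 4 times, where like-length loci gave 2.18. Of the Kupffer cell genes, Clec4f, a lectin of these cells, had 1 peak, close to its far end in LysM-Cre replicate 2 (2.76-fold). Timd4 and Vsig4, receptors for dying cells and for complement, had none in any library, although only 17.3% and 13.8% of their like-length loci had no peak. Ccr2, the receptor that draws monocytes from the bone marrow, had 0, 1 and 0 peaks in LysM-Cre and 1, 0 and 0 in Trem2-MKO, both in its flanks. Cx3cr1, the fractalkine receptor of monocytes, had 1, 1 and 0 in LysM-Cre, one at its far end and one 6.30 kb upstream, and none in Trem2-MKO.

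Genes of lipid-associated macrophages and lysosomes had a peak 16 times, where like-length loci gave 14.6. Cd36, a fatty acid transporter, had the most peaks of any gene here, 2, 2 and 4 in LysM-Cre and 5, 0 and 0 in Trem2-MKO. All 13 lay at separate positions, and 3.09% of the 1131 like-length loci had as many. The strongest were 2 in LysM-Cre replicate 3, each at 4.43-fold, and the one nearest to the start was in Trem2-MKO replicate 1, 0.459 kb inside the gene at 2.46-fold. Fabp5, a fatty acid binding protein, had 0, 1 and 1 peaks in LysM-Cre and 2, 0 and 0 in Trem2-MKO. Lpl, lipoprotein lipase, had 1 in LysM-Cre replicate 3 and 1 in Trem2-MKO replicate 1. Spp1, which encodes osteopontin, had 1, past its far end by 1.67 kb in Trem2-MKO replicate 1 (4.44-fold, top 2.35%). Ctsb and Ctsd, lysosomal proteases, had 1 each, in LysM-Cre replicate 2, and that of Ctsb overlapped the gene Fdft1. Apoe, Cd9 and Ctsl had none.

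Bst1 was marked in all 3 Trem2-MKO libraries and in no LysM-Cre library. Its product, CD157, is an enzyme and receptor on the surface of myeloid and stromal cells. Its 3 peaks, with folds of 2.77, 2.47 and 2.59 in Trem2-MKO replicates 1, 2 and 3, lay 0.316, 0.342 and 0.484 kb above the upper-coordinate end of the gene and formed 1 region (chr5:43843478-43844092). The counts were 0, 0 and 0 in LysM-Cre and 1, 1 and 1 in Trem2-MKO, which do not overlap (exact two-sided permutation p = 0.1, adjusted p = 1.0). It was 1 of the 45 loci (2.22%) with this pattern, found at 0.101% of all loci and 0.120% of the 2496 like-length loci. Because the 45 genes were chosen with earlier results of these data known, these shares are a description and no test of an excess. Peak numbers that do not overlap, with Trem2-MKO higher, were found at 0.105% of all loci. The peaks were weak, in the top 73.1%, 76.2% and 35.4% of their lists, and none had a −log10 p of 5 or more. With the 4638 strongest peaks of each list only that of replicate 3 stayed. In replicate 3 the local background, in scaled pileup, was 8, beside a list median of 5.92.

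Over the 6 genes of dying-cell uptake and activation a peak was found 13 times by gene and library, where like-length loci gave 10.4. Mertk and Axl encode receptor kinases for the uptake of dying cells. Mertk had 1, 3 and 2 peaks in LysM-Cre and 2, 0 and 0 in Trem2-MKO. The peak of LysM-Cre replicate 2 in its body, 54.5 kb from the start, ranked second among the 111 peaks by its place in its own list (5.13-fold, 18 fragments over 2.70, top 0.414%). In LysM-Cre replicate 1 a peak lay 4.73 kb inside the start at 4.39-fold. The genotypes overlapped (exact two-sided permutation p = 0.3, adjusted p = 1.0). Axl had 1 in LysM-Cre replicate 2, inside the neighbouring gene Hnrnpul1, and 1 in Trem2-MKO replicate 1, 3.11 kb inside its start. Cd300lf, an inhibitory lipid receptor, had 0, 1 and 1 peaks in LysM-Cre and 0, 0 and 1 in Trem2-MKO. Those of LysM-Cre replicate 3 (3.54-fold) and Trem2-MKO replicate 3 (2.02-fold) shared 1 region in its body, and all 3 also overlap the gene Rab37. Nos2, the inducible nitric oxide synthase, had 1 peak outside its lower end in Trem2-MKO replicate 1, and Arg1, arginase 1, had none.

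The 3 transcription factor genes had peaks in 1 library only, LysM-Cre replicate 2 (2 by gene and library, 3.77 from like-length loci). Spi1, which encodes PU.1, had 2, a weak one in its body (2.09-fold) and one 8.73 kb above its upper end (4.32-fold, top 2.85%) inside Mybpc3. Cebpb had 1, 6002 bases past its far end, and Irf8 had none. LysM-Cre replicate 2 has the longest list of all.

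The 9 loci without any peak (Lyz2, Cd68, Timd4, Vsig4, Apoe, Cd9, Ctsl, Arg1 and Irf8) are 9 of 45, and 27.5% of like-length loci had no peak. Long genes held many of the peaks: the 6 genes of 100 kb or more had 48 of the 113 (42.5%) in 33.6% of the summed locus length. The 111 peaks fell into 104 regions, of which 5 (4.81%) were held by 2 or more libraries, beside 4.43% of all 104601 regions. Exactly 2 libraries held 3 regions (2.88%, beside 4.11% of all), and 3 libraries held 2 (1.92%, beside 0.292%). The 5 were those at Adgre1, Bst1, Lgals3, Trem2 and Cd300lf given above, and no base of the Adgre1 region was held by all 3 of its libraries.

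The peaks were of about middling strength in their lists. The median peak ranked at 44.9% of its list by p. A −log10 q of 2 or more was reached by 19 of the 111 peaks (17.1%), beside 15.9% of all peaks. Of these 19, 14 were in LysM-Cre libraries (22.6% of their peaks at these loci, 16.1% of all their peaks) and 5 in Trem2-MKO libraries (10.2%, beside 15.6% of all). They lay at Trem2, Card9, Aif1, Lgals3, Mrc1, Cd36, Mertk and Spi1 in LysM-Cre, at Inpp5d, the C1q genes, Cd163 and Spp1 in Trem2-MKO, and at Adgre1 in both. The 3 peaks in the top 1% of a list were the 2 at the Lgals3 start and the one in Mertk.

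**Figure D5:**
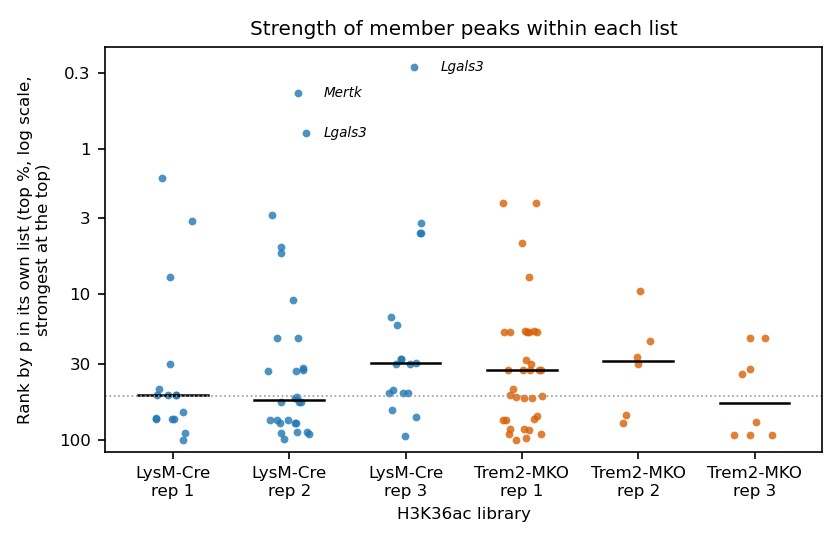
Rank of each peak by p within its own list (top %, log axis, strongest at the top) for the 6 libraries; bars are medians and the dotted line is the middle of the list. The 2 Lgals3 peaks and 1 Mertk peak, all from LysM-Cre libraries, are the 3 in the top 1%.

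By the test of each locus, none of the 45 differed between genotypes. The number of peaks was compared by an exact two-sided permutation test with Benjamini-Hochberg adjustment over all 21883 loci, and 0 members passed an adjusted p of 0.05 and 0 an unadjusted one, since 3 against 3 libraries cannot go below 0.1. Trem2 and Bst1 were the 2 members at 0.1, and 2.01% of all loci reached it. Some LysM-Cre library had a peak at 25 of the 45 loci, where 59.7% of all loci had one. Some Trem2-MKO library had one at 27, where 47.5% of all loci did. A peak was seen in both genotypes at 16 loci, in LysM-Cre alone at 9 and in Trem2-MKO alone at 11. The shares of all loci in these classes were not computed and the lists differed in length. These counts are therefore not read as a difference between genotypes. C1qb and C1qc, both among the 11, have only their shared peak. This design does not show that the genotypes were alike at any locus.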

How the data were processed

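H3K36ac ChIP-seq peak lists of 6 immunoprecipitates (3 LysM-Cre, 3 Trem2-MKO) were used; the 6 input samples were not analysed here as libraries. Per the labels' protocols, precipitated DNA underwent whole-genome amplification before library preparation. The submitters' processing notes list the build mm10 and, with versions not given in the sources used here, MACS2, Bowtie2 and Trimmomatic beside SAMtools, Picard and deepTools. By the names of the deposited lists, duplicates were removed and each library was called against a pooled control at a p of 0.01. Each deposited list gives an integer score, a fold ratio over local background, a −log10 p, a −log10 q and the summit offset; these values are the authors' and describe single peaks.

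Loci were RefSeq extents (GRCm38.p6) plus 10 kb, and 1 bp of overlap counted. The 45 genes and the comparison lists were chosen with earlier results of these data known. A library with 1 or more peaks at a locus marks it. Strand came from the promoter table for 34 genes; for the other 11, ends are named by coordinate. Fragments at a summit were recovered as the whole number that returned both fold, as (pileup + 1)/(background + 1), and Poisson p. This solved 99.4% to 100% of peaks within 0.01. Pileup was fragments times a scale, 0.903 and 0.798 in Trem2-MKO replicates 2 and 3 and 1 in the other lists. Background values are in units of this scaled pileup. Genes named in full were Trem2, Tyrobp, Lyz2 and those marked in 4 or more libraries, separated by genotype, sharing a region, or holding a gene-end peak or a −log10 q of 2 or more; the others are described as far as their few peaks allow. Scripts ran in Python 3.11.15 and were tested on simulated data. Peak numbers were compared over libraries by exact permutation tests, and the closing section gives the alternatives.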

Additional observations from a re-analysis of the deposited data

How the results depend on the processing

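Of 144 recomputed differences for single genes, 127 kept their direction, 14 became 0 and 3 reversed. Some of the 127 could not change. The replicate block leaves a difference as it is, and leaving out a library cannot reverse a 3 to 0 locus. Trem2 became 0 without a flank, and Bst1 without a flank and at both thresholds. The ratio of marked loci to like-length loci over all libraries stayed between 1.11 and 1.25 with any library left out, at 1.16 with lengths within 10% and at 1.22 with like-length genes of the same chromosome. It was 0.932 without a flank, 1.14 and 1.23 with 5 and 20 kb flanks, 1.34 and 1.32 at a −log10 p of 5 and a −log10 q of 2, and 1.41 with equal numbers of the strongest peaks. In LysM-Cre it became 0.750 without a flank, 1.36 at a −log10 q of 2 or more and 1.24 with equal numbers of the strongest peaks. Leaving out a library gave 0.869 to 1.10 there, and 1.28 to 1.57 for Trem2-MKO. The share of peaks at gene ends was 28.6% at a −log10 q of 2 or more, 30.1% with windows of 2.5 kb and 15.3% to 19.7% with a library left out; its ratio to like-length genes was then 1.97 to 2.61.

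The number of loci at the smallest p, 2, was 1 with 5 kb flanks, with equal numbers of peaks or where −log10 p reached 5, and 0 without a flank and at a −log10 q of 2 or more. It was 2 to 5 with a library left out. Loci marked in every LysM-Cre and no Trem2-MKO library (1 in the report) numbered 0 with 5 kb flanks, without a flank and at a −log10 q of 2 or more, 2 with 20 kb flanks (Ctsb joins Trem2), and 1 to 4 with a library left out. The 4 were Trem2, Marco, Cd36 and Mertk, without Trem2-MKO replicate 1. Those marked the other way (1) numbered 0 with 20 kb flanks, without a flank, with either threshold and with equal numbers of peaks, and 1 to 2 with a library left out. Trem2 and Bst1 kept their patterns whichever library was left out, but a 3 to 0 pattern cannot be lost that way. Shared regions numbered 8 with 20 kb flanks, 3 without a flank, 1 with either threshold, 2 with equal numbers of peaks and 3 to 5 with a library left out. The median rank moved by construction, to 17.9% and 3.81% at the thresholds and 7.62% with equal numbers of peaks, and was 33.4% to 48.7% with a library left out. The difference in peaks (Trem2-MKO minus LysM-Cre) reversed for Marco at a −log10 p of 5 or more (0.333), for Adgre1 with equal numbers of peaks (0.333) and for Mrc1 without LysM-Cre replicate 2 (0.167, in a range from −0.833 with a library left out); the cause was not tested.

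Deviations of same-numbered libraries correlated at −0.275, −0.257 and 0.0606 over all loci, and those of differently numbered libraries at −0.293 to 0.320. These values show no pairing by replicate number, but with 3 libraries of each genotype and lists of unlike length they cannot exclude it. With the replicate block, 2 loci were at the smallest p, which is then 0.25. Sequencing depth was not analysed here, and how it bears on these results was not tested.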
